A study of Mus musculus with 12 samples.

Results

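The striatum of pre-symptomatic HD mice was compared with the striatum of WT mice in 4 of the 12 RNAseq libraries of the series, which were chosen by their labels. HD striatum was represented by 2 libraries of R6/2 mice at 8 weeks, of which the one with a 2 in its label is called replicate 2 and the other, which has no number, replicate 1. WT striatum was represented by 1 library of R6/2 littermates at 13 weeks and 1 at 8 weeks, and these were pooled, so that the WT group mixed ages while the HD group did not. No group received a treatment. R6/2 mice carry exon 1 of human HTT with an expanded CAG repeat as a transgene under the human HTT promoter, and they keep both copies of mouse Htt. The sources used here do not say how many mice gave each library, how the striatum was dissected, or whether HD and WT libraries were prepared together. The libraries were made from total RNA with the Lexogen QuantSeq kit, which reads the 3′ ends of polyadenylated transcripts, and the deposited values are read counts per gene.

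Most neurons of the striatum are GABAergic projection neurons, which receive glutamate from cortex and thalamus and dopamine from the midbrain. Those of the direct pathway express the D1 dopamine receptor Drd1 with Tac1 and Pdyn, and those of the indirect pathway express the D2 receptor Drd2 with Adora2a and Penk. Both receptors act on cAMP through the cyclase Adcy5, the D1 receptor by way of the stimulatory G protein subunit Gnal. In turn, cAMP and calcium switch on immediate early genes such as Fos, Egr1 and Arc. In HD, projection neurons are the most vulnerable cells, and loss of their characteristic transcripts is a long-known feature of R6/2 mice.

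The 4 libraries held between 9185126 and 10226002 counts, and intervals from such counts cover counting error only. Rn45s, the precursor of ribosomal RNA, made up 14.4% of the reads of replicate 1 and 13.7% of those of replicate 2, against 5.62% in the 13-week and 4.32% in the 8-week WT library. It rose by 1.63 on the log2 scale (adjusted p = 0.00749, standard error 0.198), and both HD libraries lay above both WT libraries. By Xist and the Y-linked gene Ddx3y, replicate 1 and the 8-week WT library showed the male pattern, and replicate 2 and the 13-week WT library the female pattern. Each group thus held both sexes. Within HD striatum, sex and replicate number cannot be told apart. The HD replicates differed far more than sampling noise allows, with a chi-square per degree of freedom of 73.0, against 14.4 for the pair of WT striatal libraries and 6.98 to 19.3 for the replicate pairs of the other HD groups.

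Markers listed for each cell type and region, chosen with earlier results of these data known, describe where replicate 2 stood apart. The 28 genes listed for striatal projection neurons summed to 18470 CPM (counts scaled to the library sizes after TMM normalization) in replicate 1 and 7506 CPM in replicate 2, against 19388 CPM in the 13-week and 17255 CPM in the 8-week WT library. Thalamus markers summed to 305 CPM in replicate 1, 3312 CPM in replicate 2, and 265 and 263 CPM in the WT libraries. Oligodendrocyte markers summed to 3714 CPM in replicate 1, 22759 CPM in replicate 2, and 5619 and 6535 CPM in the WT libraries. Choroid plexus markers summed to 27.5 CPM in replicate 1, 1005 CPM in replicate 2, and 20.9 and 16.8 CPM in the WT libraries. Replicate 2 was therefore low in projection neuron transcripts and high in those of thalamus, myelin and choroid plexus, whereas replicate 1 lay near the WT libraries in all but the oligodendrocyte list, where it was the lowest of the 4. Astrocyte markers (3521 to 4352 CPM) and microglia markers (508 to 658 CPM) varied less in sum over the 4 libraries. The astrocyte sum was higher in the HD libraries (4304 and 4352 CPM) than in the WT libraries (3521 and 3747 CPM). Its members had a median log2 fold change of 0.07 for replicate 1 and 0.50 for replicate 2, beside -0.02 and -0.04 over all genes tested. In bulk tissue, fewer cells of a type and less RNA per cell cannot be told apart. The WT libraries, of female and male pattern, lay near each other in the thalamus and choroid plexus lists. The part of sex in these lists was not tested. The libraries carried the markers of their labelled tissue, such as Drd1 and Ppp1r1b, but Drd2 had 0 counts in both HD libraries and 0 and 2 in the WT libraries, and Gpr6, another marker of indirect-pathway neurons, had 0, 0, 1 and 2. Changes seen in both HD libraries were for this reason separated from those seen in replicate 2 alone.

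**Figure D1:**
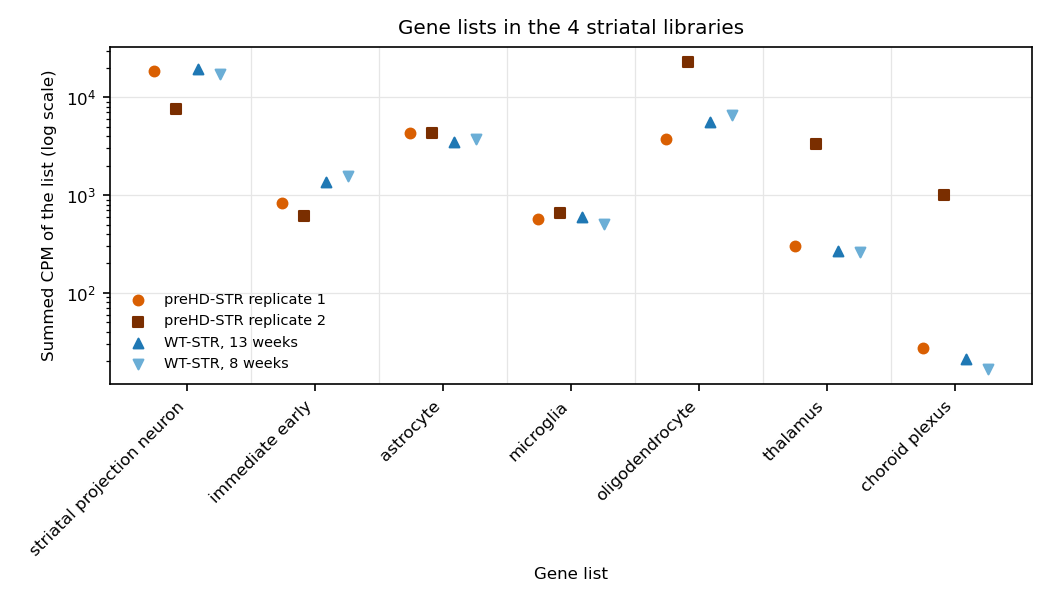
Summed CPM (log axis) of 7 gene lists in the 4 striatal libraries, with 1 point per library. Replicate 2 lies below the other libraries for striatal projection neuron markers (7506 CPM) and above them for oligodendrocyte, thalamus and choroid plexus markers (22759, 3312 and 1005 CPM), while both HD libraries lie below both WT libraries for the immediate early genes.

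With both HD libraries taken as 1 group, 276 of 14706 genes tested (1.88%) passed the threshold of 0.05 on the adjusted p. In HD striatum 218 genes (1.48%) rose and 58 (0.394%) fell. The genes that rose had a median log2 fold change of 1.21, with a median level of 22.5 CPM in WT and 52.3 CPM in HD striatum. The genes that fell had a median log2 fold change of -1.02, with median levels of 71.1 and 34.6 CPM. In all 276 genes the 2 HD libraries did not overlap the 2 WT libraries. The genes were called from these same libraries, so this describes the calls and adds no support to them. Over all genes tested 20.8% had both HD libraries above both WT libraries and 22% had both below. Fold changes of at least 2 in each HD library were seen in 106 of the genes that rose and 19 of those that fell. The calls rested on a spread estimated over all 12 libraries and on the 8-week WT library: 0 genes were called in a fit of the 6 striatal libraries (1656 at an unadjusted p under 0.05) and 0 without the 8-week WT library (1450 at an unadjusted p under 0.05). DESeq2 called 913 genes, and 79 were called without the 13-week WT library, that is, against the age-matched WT library alone.

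The HD libraries were then set against WT striatum one at a time, in comparisons that share the WT libraries. A single library has no spread of its own, so these tests assume that it varies like the libraries of the other groups. The HD striatum libraries differed from each other by a chi-square per degree of freedom of 73, against 6.98 to 19.3 for the other pairs of one group, so the calls compare these libraries and not the conditions. Replicate 1 differed in 372 genes (2.53%), of which 321 rose (2.18%) and 51 fell (0.347%). Replicate 2 differed in 2788 genes (19%), of which 1521 rose (10.3%) and 1267 fell (8.62%). Set against each other, the HD libraries differed in 1660 genes (11.3%), with 862 higher (5.86%) and 798 lower (5.43%) in replicate 2. A gene was counted as changed in both when each library passed the test in the same direction, which held for 188 genes that rose (1.28%) and 25 that fell (0.17%). It was counted as changed in replicate 2 only when replicate 2 differed from WT and from replicate 1 while replicate 1 did not differ from WT, which held for 708 genes that rose (4.81%) and 607 that fell (4.13%). By the same rule for replicate 1 only, 41 genes rose (0.279%) and 6 fell (0.0408%). Genes changed in both made up 167 of the 218 genes that rose in the pooled comparison and 25 of the 58 that fell. Genes changed in replicate 2 only made up 7 of the 218 and 0 of the 58.

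**Figure D2:**
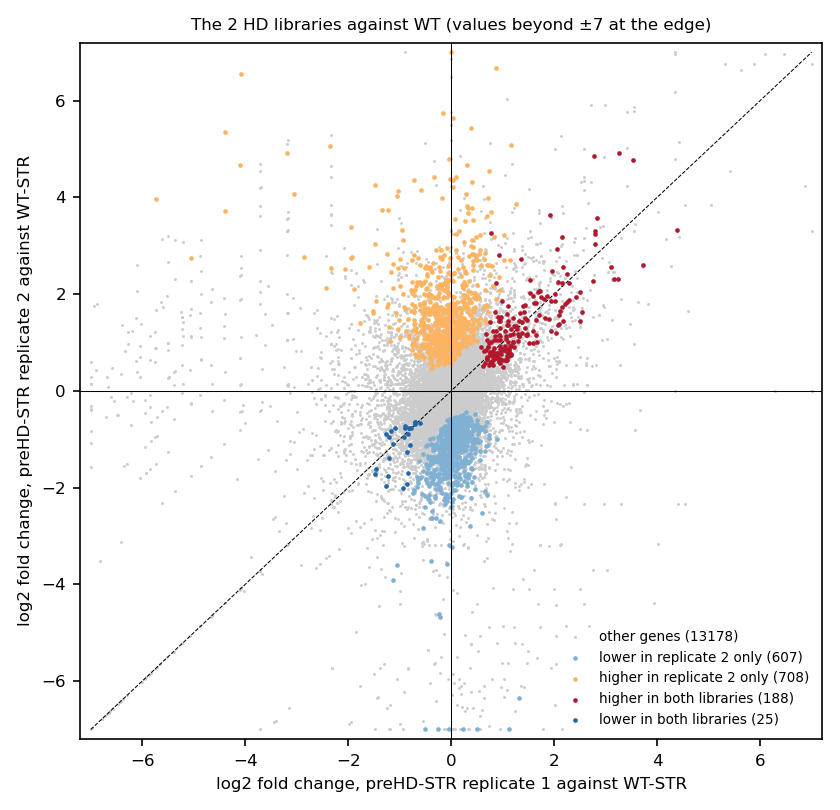
log2 fold change against WT striatum of replicate 1 (horizontal axis) and replicate 2 (vertical axis), with 1 point per gene and values beyond 7 drawn at the edge. The 188 genes higher and 25 lower in both libraries lie along the dashed line of equal change, and the 708 higher and 607 lower in replicate 2 only lie along the vertical axis; both axes share the WT libraries and the classes were defined from these values.

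Among the named genes that rose in both libraries, Gdf11 and Gabbr2 had the largest increases. Gabbr2, the subunit of the metabotropic GABA receptor that couples to the G protein, was at 19.8 CPM in replicate 1 and 83.3 CPM in replicate 2, against 2.77 CPM in the 13-week and 3.01 CPM in the 8-week WT library. It rose by 4.15 on the log2 scale (adjusted p = 0.0192, standard error 0.617), and replicate 2 was higher than replicate 1 by a further 2.07 on the log2 scale (adjusted p = 0.000334). Gdf11, a secreted ligand of the TGF-β family, was at 5.74 and 18.1 CPM in the HD libraries and at 0.477 and 0.703 CPM in the WT libraries (log2 fold change 4.32, standard error 0.618, adjusted p = 0.010). Gdf11 rested on 5 and 7 counts in the WT libraries, so its fold change is uncertain.

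Irs2, the adaptor that carries signals from the insulin and IGF1 receptors, was at 19.6 and 28.0 CPM in the HD libraries and at 3.34 and 2.31 CPM in the WT libraries (log2 fold change 3.07, standard error 0.348, adjusted p = 0.00470). Megf9, a membrane protein with EGF-like repeats, was at 13.9 and 23.3 CPM against 2.29 and 1.61 CPM. Chrm2, the M2 muscarinic receptor, which lowers cAMP, was at 8.08 and 16.5 CPM against 2.67 and 0.904 CPM. For each of these genes both HD libraries lay well above both WT libraries, and replicate 2 did not differ from replicate 1 beyond the test's threshold. Ptpn4, a tyrosine phosphatase of synapses, also rose in both (18.0 and 59.3 CPM against 6.29 and 3.21 CPM), but replicate 2 was higher than replicate 1 (adjusted p = 0.0191). Lsm12, Ipo7, Cep85l and Trip11, which serve RNA binding, nuclear import, the centrosome and the Golgi, rose by 2.17 to 2.38 on the log2 scale. Wasf3, an actin regulator, rose by 2.56 and Gm9833, a predicted gene with 11 and 20 counts in the WT libraries, by 2.85.

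Among the named genes that rose in both libraries, 2900060B14Rik had the most reads. It is annotated as an antisense RNA of the Clasp1 locus on chromosome 1 from 118458652 to 118459267 (minus strand, GRCm38), and it was at 630.2 and 349 CPM in the HD libraries and at 85.0 and 54.9 CPM in the WT libraries (log2 fold change 2.81, standard error 0.280, adjusted p = 0.00470). The HD libraries differed from each other, at -0.854 on the log2 scale for replicate 2 less replicate 1. 2900060B14Rik overlaps Gm22710 on the same strand and Clasp1 on the other. The sources used here do not say whether counting used strand, so its reads cannot be told apart from theirs. Snora81, a small nucleolar RNA that lies within Eif4a2 on chromosome 16, was at 21.8 and 15.0 CPM against 3.15 and 1.91 CPM (log2 fold change 2.85, adjusted p = 0.00775). Snord89 was at 18.7 and 9.91 CPM against 4.01 and 2.41 CPM (log2 fold change 2.15, adjusted p = 0.0293). These 2 were the only small nucleolar RNAs called among 12 tested of 112 listed. The list had a median log2 fold change of 2.32, but the other 10 members were at 7.26 CPM or less in each of the 4 libraries, and reads of small nucleolar RNAs cannot be told apart from those of the transcripts that host them.

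Of the genes that fell in both libraries, Rgs2 belongs to striatal signalling. It encodes a protein that shortens the signal of G protein-coupled receptors, and it lies on chromosome 1 from 143999338 to 144004161 (minus strand, GRCm38). Rgs2 was at 422 CPM in replicate 1 and 201 CPM in replicate 2, against 844 CPM in the 13-week and 681 CPM in the 8-week WT library. It fell by 1.29 on the log2 scale (adjusted p = 0.0393, standard error 0.269), with a log2 fold change of -0.85 for replicate 1 alone (adjusted p = 0.0120) and of -1.93 for replicate 2 alone (adjusted p = 3.19e-06). Replicate 2 was the lower of the HD libraries by 1.07 on the log2 scale (adjusted p = 0.00125), as it was in most genes listed for projection neurons. Lrrc4c, a synaptic adhesion protein that binds netrin-G1, showed the same order, at 154 and 73.3 CPM against 265 and 325 CPM (log2 fold change -1.38, adjusted p = 0.0463). The HD libraries did not differ beyond the threshold in any of the other genes named as lower in both.

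Snx3, a sorting nexin that works with the retromer in recycling of membrane proteins, was at 127 and 128 CPM in the HD libraries and at 240 and 313 CPM in the WT libraries. It fell by 1.12 on the log2 scale (adjusted p = 0.010, standard error 0.16). Snhg8, a host gene of small nucleolar RNA that overlaps Snora24, fell by 1.46 on the log2 scale (50.0 and 34.5 CPM against 97.6 and 136 CPM, adjusted p = 0.0160). Snora81 and Snord89, which rose, lie in other loci. Ccng2, an atypical cyclin tied to growth arrest, was at 16.6 and 14.1 CPM against 34.2 and 58.3 CPM. Krt10, Ephx4, Cox17, Mrpl27, Rsrp1, Rpl30 and Rmnd5a fell by 0.93 to 1.58 on the log2 scale. Cox17 delivers copper to cytochrome c oxidase, and Mrpl27 and Rpl30 are proteins of the mitochondrial and cytosolic ribosome. Rpl30 has near-identical copies in the genome, and its value is uncertain where reads could be split among them. In the genes of this paragraph the WT library at 8 weeks was above that at 13 weeks, and both were above the HD libraries.

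**Figure D3:**
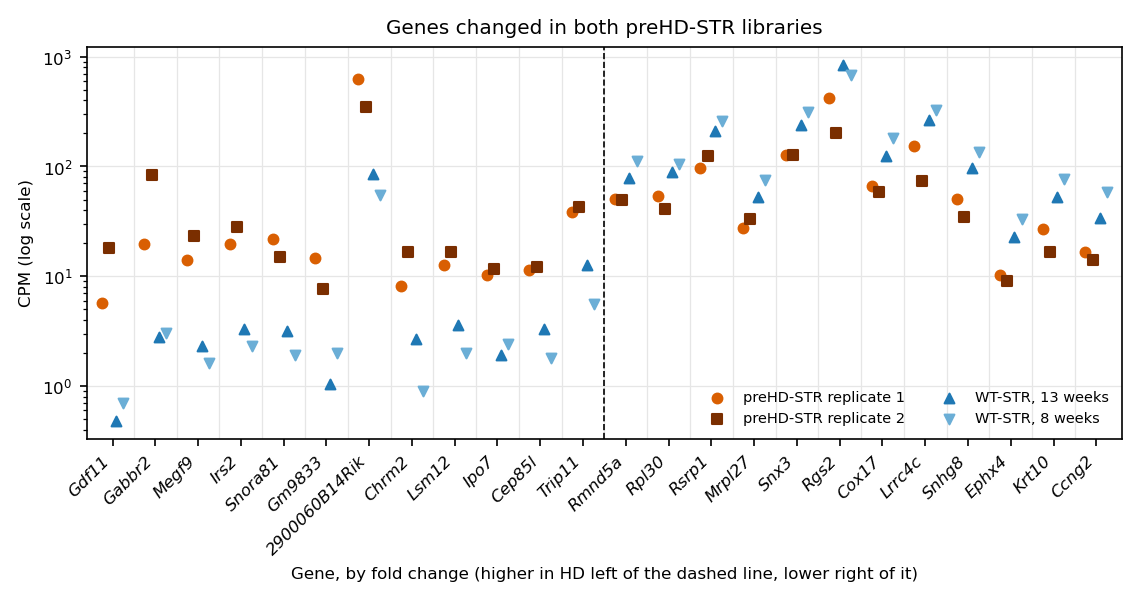
CPM (log axis) in the 4 striatal libraries of the 12 genes that rose and the 12 that fell most in both HD libraries, with 1 point per library and genes ordered by fold change. Both HD points lie above both WT points in each gene left of the dashed line and below them in each gene right of it, and the HD points lie farthest apart in Gabbr2 (19.8 and 83.3 CPM).

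The largest decreases in the pooled comparison were in genes that did not pass the test in replicate 1 alone. Slc6a15, a transporter of neutral amino acids, was at 7.61 and 7.86 CPM in the HD libraries and at 22.5 and 50.1 CPM in the WT libraries (log2 fold change -2.23, standard error 0.434, adjusted p = 0.0351). Spcs3, a subunit of signal peptidase, was at 7.03 and 7.54 CPM against 18.5 and 49.2 CPM, and Tdrd7, a Tudor domain protein of RNA granules, was at 8.55 and 8.07 CPM against 22.2 and 45.5 CPM. In these 3 genes the HD libraries nearly coincided, and the WT libraries differed from each other by more than the HD libraries did. Cdc42ep3, an effector of Cdc42, Rbp4, the plasma carrier of retinol, and Chsy3, a chondroitin sulfate synthase, fell by 1.73, 1.71 and 1.58 on the log2 scale.

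Genes that rose were long. Those found in the GENCODE M21 annotation (95.9% of 218) had a median gene span of 54672 bp, against 21196 bp for the genes that fell (94.8% of 58 found) and 24318 bp for all genes tested (95.9% found). The median GC content of the longest transcript was 46.3% in genes that rose, 49.3% in genes that fell and 49.8% over all genes. With the trend of each library with gene span removed, an alternative chosen after the data were seen, 169 genes were called in place of 276 (127 higher and 42 lower). Of the 218 genes that rose, 212 also lay above both WT libraries in both HD libraries of the cortex, a position held by 26.4% of all genes tested. Of the 58 genes that fell, 23 lay below both WT cortex libraries in both HD cortex libraries, against 26.5% of all genes. The cortex libraries also entered the fit that gave these calls. They matched the striatal libraries in age and, by Xist and Ddx3y, in sex. The sources used here do not say whether both regions came from the same mice, so the cortex is not taken as a separate sample. The share of Rn45s, which was higher in all HD libraries of both regions (10.5% to 15.2%) than in all WT libraries (4.32% to 5.62%), moved with the genes that rose, and its part in them was not tested.

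Irs2 shows the pattern of the genes that rose: it was at 15.3 and 16.6 CPM in the HD cortex libraries and at 6.10 and 3.32 CPM in the WT cortex libraries. Gabbr2 was at 93.4 and 97.9 CPM in HD cortex against 16.3 and 20.5 CPM. Of the genes that fell, Slc6a15 was at 19.1 and 13.5 CPM in HD cortex against 19.1 and 10.03 CPM in WT cortex, and Rgs2 was at 132 and 146 CPM against 166 and 165 CPM. The difference itself, that is, HD against WT in striatum minus HD against WT in cortex, was tested in the fit of all 12 libraries. By edgeR 0 of 14706 genes (0%) passed, with 1165 at an unadjusted p under 0.05, and by DESeq2 16 passed. For Slc6a15 the difference was -2.39 on the log2 scale (adjusted p = 0.619) and for Gabbr2 it was 1.78 (adjusted p = 0.623). With replicate 1 of HD striatum left out, the difference rests on replicate 2 alone. That library was high in transcripts of thalamus, myelin and choroid plexus, so such a fit does not describe the regions.

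Immediate early genes, which neurons transcribe within minutes of synaptic activity, had lower summed levels in both HD libraries than in both WT libraries. The 16 listed genes summed to 838 CPM in replicate 1 and 614 CPM in replicate 2, against 1367 CPM in the 13-week and 1570 CPM in the 8-week WT library. In 12 of the 16 both HD libraries lay below both WT libraries, and in 1 (Jun) they lay above, whereas 22% of all genes tested had both HD libraries below. The median log2 fold change of the list was -1.27 in the pooled comparison, -1.19 for replicate 1 and -1.47 for replicate 2, beside 0.00, -0.02 and -0.04 over all genes tested. Only Egr4 passed the test in the pooled comparison, and none passed it for replicate 1 alone, where 2149 of all genes had an unadjusted p under 0.05. Fold changes were negative in 14 of the 16 genes for replicate 1 and in 13 for replicate 2, beside 7593 and 7698 of 14706 genes tested. Egr4, Egr2 and Btg2 are shown by their promoters, from 250 bases before to 50 after the start of transcription: Egr4 as the member that passed the test, Egr2 as the only one of the 12 genes with a promoter found that has a serum response element, printed at 1 of its 5 listed starts, and Btg2 as 1 of 2 with a full cAMP response element. The sequences are those of RefSeq for GRCm38.p6, written on the strand of the gene, with the element in capitals where there is one.
Egr4, chr6:85513540-85513839, minus strand: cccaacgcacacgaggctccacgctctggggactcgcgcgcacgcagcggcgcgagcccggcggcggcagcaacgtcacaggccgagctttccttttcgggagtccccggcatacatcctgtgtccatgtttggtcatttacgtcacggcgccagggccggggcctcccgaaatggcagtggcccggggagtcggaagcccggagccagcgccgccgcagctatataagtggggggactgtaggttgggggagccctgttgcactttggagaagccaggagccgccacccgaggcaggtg
Egr2, chr10:67537619-67537918, plus strand: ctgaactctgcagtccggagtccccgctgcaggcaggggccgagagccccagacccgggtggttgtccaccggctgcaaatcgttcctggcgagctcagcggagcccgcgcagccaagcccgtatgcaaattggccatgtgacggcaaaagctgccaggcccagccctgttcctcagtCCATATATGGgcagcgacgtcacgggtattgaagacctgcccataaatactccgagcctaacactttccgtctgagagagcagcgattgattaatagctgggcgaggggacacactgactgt
Btg2, chr1:134079106-134079405, minus strand: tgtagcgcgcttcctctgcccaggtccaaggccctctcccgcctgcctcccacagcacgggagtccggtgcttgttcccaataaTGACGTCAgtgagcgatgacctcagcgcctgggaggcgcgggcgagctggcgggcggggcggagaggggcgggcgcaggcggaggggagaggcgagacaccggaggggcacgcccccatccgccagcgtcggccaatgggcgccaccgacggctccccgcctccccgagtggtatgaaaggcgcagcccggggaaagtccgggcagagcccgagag

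A promoter was found for 12 of the 16 genes, with 17 starts in all, 5 of them for Egr2 and 2 for Homer1, and 4 motifs were searched on both strands. The cAMP response element (TGACGTCA), bound by CREB, was in those of Btg2 and Dusp1, and 2.03% of all genes with a promoter hold it. The serum response element (CArG box), bound by SRF, was at 4 of the 5 starts of Egr2, which lie close together, and at no start of the other genes. It is held at 1 or more starts by 1.81% of all genes. The MEF2 site was in that of Jun (0.636% of all genes), and the site of the EGR factors (GCGTGGGCG) was in none of the 12 (0.707% of all genes). A match is a description of these letters only, and a gene without one may hold the element outside the stretch searched. The promoter of Egr4 printed above holds none of the 4.

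Egr4, a zinc finger transcription factor of the EGR family, was at 53.3 CPM in replicate 1 and 47.0 CPM in replicate 2, against 145 and 136 CPM in the 13-week and 8-week WT libraries. The HD libraries were near each other and so were the WT libraries, and Egr4 fell by 1.49 on the log2 scale (adjusted p = 0.0321, standard error 0.285). Nr4a1, an orphan nuclear receptor, was at 16.0 and 17.2 CPM against 72.8 and 134 CPM (log2 fold change -2.63, adjusted p = 0.0653). Egr2 was at 3.28 and 5.49 CPM against 23.7 and 23.8 CPM (log2 fold change -2.43, adjusted p = 0.116). Egr1 was at 242 and 149.9 CPM against 432 and 416 CPM, and Arc, which encodes a synaptic protein that controls AMPA receptors, was at 40.4 and 47.9 CPM against 89.1 and 142 CPM. These 4 genes had no overlap between the groups but did not pass the test. Fos was at 7.15 and 10.2 CPM against 10.4 and 35.8 CPM, with replicate 2 and the 13-week WT library at nearly the same level. Jun, the partner of Fos in AP-1, was at 58.5 and 71.2 CPM against 22.8 and 45.1 CPM (log2 fold change 0.93, adjusted p = 0.119). The lower sum was seen in replicate 1, in which the projection neuron markers were near WT, and in replicate 2, in which they were not. Its relation to these markers was not tested.

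**Figure D4:**
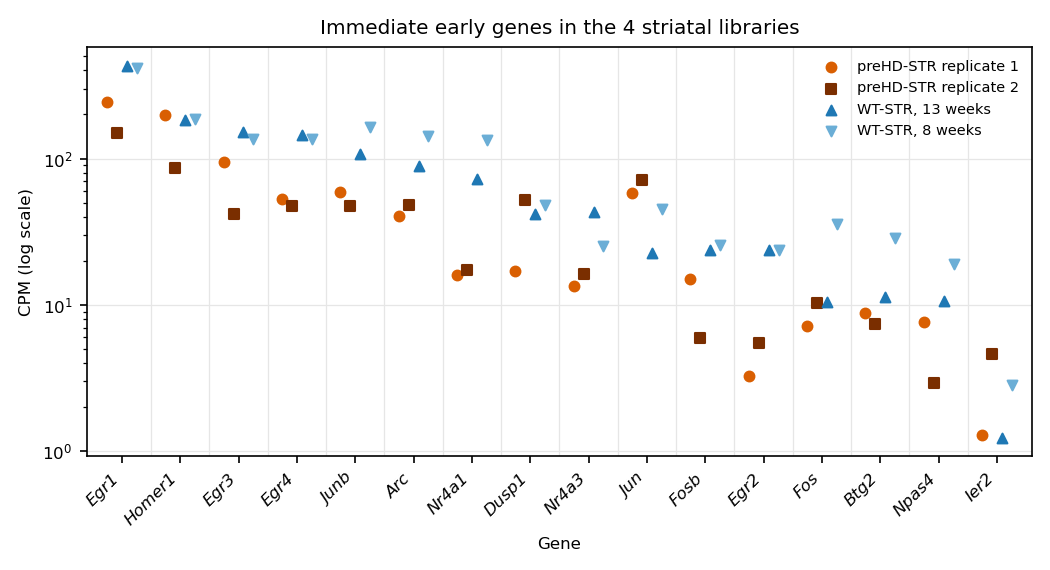
CPM (log axis) of the 16 immediate early genes in the 4 striatal libraries, with 1 point per library and genes ordered by their level in WT. In 12 genes both HD points lie below both WT points (in Egr4, 53.3 and 47.0 CPM against 145 and 136 CPM), and in Jun both lie above.

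Projection neuron markers did not pass the test in the pooled comparison (0 of 28, median log2 fold change -0.64). The median was -0.08 for replicate 1 alone and -1.49 for replicate 2 alone, beside -0.02 and -0.04 over all genes tested. Fold changes were negative in 17 of 28 members for replicate 1 and in 28 of 28 for replicate 2. Over all 14706 genes tested they were negative in 7593 and 7698. Gnal lay above both WT libraries in replicate 1, at 899.8 CPM against 591 and 496 CPM (log2 fold change 0.73). Replicate 2 had 434 CPM of Gnal. Ppp1r1b, which encodes DARPP-32, the phosphatase inhibitor through which dopamine acts, was at 2100 CPM in replicate 1 and 738 CPM in replicate 2, against 2081 and 1797 CPM. Rgs4 was an exception to the low levels of replicate 2, at 1134 and 1196 CPM against 1735 and 1104 CPM, with overlap of the groups.

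Markers of both pathways were low in replicate 2. Those of the direct pathway summed to 2399 CPM in replicate 1 and 727 CPM in replicate 2 (WT 2359 and 2346 CPM), and those of the indirect pathway to 2001 and 594 CPM (WT 2478 and 2344 CPM). Whether the pathways differed was not tested. Drd1 was at 1308 CPM in replicate 1 and 328 CPM in replicate 2 (WT 1207 and 1213 CPM), Penk at 1712 and 470.4 CPM (WT 2183 and 2074 CPM) and Tac1 at 492 and 121 CPM (WT 528 and 531 CPM). In each of them replicate 2 lay far below the other 3 libraries, and replicate 1 was above both WT libraries for Drd1 and below both for Penk and Tac1. Of 27 genes tested in the list for dopamine and cAMP signalling, 1 fell (Rgs2) and 0 rose in the pooled comparison, with a median of -0.39. For replicate 1 alone the list had a median of 0.07 and for replicate 2 alone of -1.19, beside -0.02 and -0.04 over all genes tested. Rgs2 was the member of this list that fell in both. Prkar2a, a regulatory subunit of protein kinase A, was at 29.4 and 32.4 CPM against 18.3 and 19.4 CPM (log2 fold change 0.71, adjusted p = 0.0647). Of the 14 neuropeptide genes 0 passed in the pooled comparison, and Pnoc, the precursor of nociceptin, came nearest (2.93 and 11.4 CPM against 0.477 and 1.31 CPM, adjusted p = 0.0564).

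The genes changed in replicate 2 only were led by transcripts of other regions. Shox2, a homeobox factor of the thalamus, had 3904 counts (420.3 CPM) in replicate 2 and 0 counts in replicate 1 and in both WT libraries. Against the limit that 0 counts allow over both WT libraries (3 counts, 0.147 CPM), this is at least 2860-fold higher. Slc17a6, the vesicular glutamate transporter VGLUT2 of thalamic neurons, was at 4.80 CPM in replicate 1, 235 CPM in replicate 2 and 5.72 and 3.62 CPM in the WT libraries. Prkcd, a protein kinase C of thalamic neurons, was at 4.22, 254, 2.38 and 7.13 CPM in the same order. The 15 thalamus markers tested had a median log2 fold change of 4.22 for replicate 2 and of 0.30 for replicate 1. Over all genes tested these medians were -0.04 and -0.02. Gbx2 and Calb2 did not pass the test for replicate 2. Vipr2, which was too low to test, had 1 count in replicate 1, 71 in replicate 2 and 0 in both WT libraries.

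All 16 oligodendrocyte markers had a positive fold change in replicate 2, a sign held by 6981 of 14706 genes tested. Their median log2 fold change was 2.24, beside -0.04 over all genes tested. Mbp, the myelin basic protein, was at 1395 CPM in replicate 1 and 9077 CPM in replicate 2, against 2300 and 2280 CPM. In replicate 1 the list had a median of -0.30. Ttr, the transthyretin of choroid plexus, was at 0.469 CPM in replicate 1, 932 CPM in replicate 2 and 0.572 and 1.21 CPM in the WT libraries, and 0 of the 10 choroid plexus markers passed for replicate 2 (adjusted p = 0.0503 for Ttr). Rab37, Eps8l2 and Medag also led the genes higher in replicate 2 only, as did Rgs16 and Tnnt1, which are members of the thalamus list. The genes lower in replicate 2 only were led by Mzf1, Ocel1, Sstr2, Rspo1, Vipr1, Gm5607, Setd4 and Peg10, which were at 0.323 to 6.24 CPM in replicate 2 and at 3.75 to 45.1 CPM in replicate 1. The part of the tissue captured in replicate 2 in these changes was not tested apart from the marker values given here.

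Receptors and channels had few calls in the pooled comparison. Of 25 tested genes for AMPA, NMDA, metabotropic glutamate and GABA receptors, Gabbr2 alone passed in the pooled comparison, and the list had a median of -0.03. For replicate 1 and replicate 2 alone the list had medians of 0.11 and -0.10, beside -0.02 and -0.04 over all genes tested. Gria2, a subunit of AMPA receptors, was lowest in replicate 2 (751 CPM in replicate 1 and 257 CPM in replicate 2, WT 544 and 529 CPM). Of 29 channels of excitability, 0 passed in the pooled comparison. Kcnc1, the fast delayed rectifier Kv3.1, was the 1 member that rose in each library alone (82.8 and 305 CPM against 46.2 and 41.0 CPM), with an adjusted p of 0.0714 in the pooled comparison.

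The series concerns DNA damage and autophagy in HD. Of 18 genes of the DNA damage response, 1 passed in the pooled comparison, and Chek2, Usp28 and Cops6 were among those that did not. H2afx, which encodes the histone whose phosphorylated form marks double-strand breaks, fell, at 23.0 and 23.6 CPM against 38.2 and 42.3 CPM (log2 fold change -0.79, standard error 0.162, adjusted p = 0.0365). In 8 of the 18 both HD libraries lay below both WT libraries and in 3 above, beside 22% and 20.8% of all genes tested, and the median of the list was -0.01. Fbxw7, an F-box protein of the SCF ubiquitin ligase, was at 256 and 239.8 CPM against 263 and 328 CPM (log2 fold change -0.26, adjusted p = 0.388). Nbn, of the complex that senses double-strand breaks, was at 16.3 and 17.9 CPM against 7.15 and 8.64 CPM (log2 fold change 1.11, adjusted p = 0.0526), and its partner Rad50 rose in replicate 1 alone (adjusted p = 0.0235). Socs2, an inhibitor of cytokine signalling, was at 24.5 and 32.4 CPM against 29.0 and 26.9 CPM, with overlap of the groups, and 0 of the 18 genes in the list that holds it with autophagy genes passed (median 0.01).

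Among huntingtin and its partners, Hip1, an endocytic adaptor that binds huntingtin, rose in both libraries (49.7 and 45.2 CPM against 22.1 and 28.5 CPM, log2 fold change 0.91, adjusted p = 0.0442). Mouse Htt was at 32.4 and 30.1 CPM against 33.1 and 39.7 CPM (log2 fold change -0.22, adjusted p = 0.630). Rgs5, a marker of pericytes, also rose in both (27.5 and 39.1 CPM against 13.8 and 14.8 CPM, log2 fold change 1.22, adjusted p = 0.0272), as the 1 of 12 endothelial and mural markers that passed, while the list summed to 247 and 353 CPM in the HD and 252 and 237 CPM in the WT libraries. In the pooled comparison 0 genes passed of 22 for cholesterol synthesis, 12 for glucocorticoid response, 17 for the circadian clock, 19 heat shock proteins and chaperones and 25 clustered protocadherins tested of 59 listed. Their medians lay between -0.19 and 0.49. The marker lists of direct-pathway neurons (8), indirect-pathway neurons (5 tested), striatal interneurons (10), astrocytes (12), microglia (13), oligodendrocyte precursors (5), cortical excitatory neurons (11), habenula (5 tested) and hypothalamus (3 tested) had 0 members called in the pooled comparison, as had the 5 sex-linked genes.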

How the data were processed

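RNAseq libraries of striatum and cortex were made from R6/2 mice and WT littermates. The authors deposited raw counts of reads per gene symbol for each library. Per the labels, Bowtie2, bedtools and the mm10 build (GRCm38) were used, and the counting rule is not given in the sources used here. The tables listed 23282 symbols, 4306 of them without reads in all 12 libraries, and 44 rows with a symbol already listed were kept apart.

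The counts were tested with edgeR 4.0.16 in R 4.3.3 (TMM scaling, filterByExpr at a minimum count of 10, robust fit of the quasi-likelihood model). P-values were adjusted over 14706 genes by the method of Benjamini and Hochberg, with a threshold of 0.05. The 12 libraries formed 6 groups of HD stage or WT by region, with 6 residual degrees of freedom. For single libraries the HD striatum replicates formed groups of their own, with 5, and were assumed to vary like the other groups. With 2 against 2 libraries an exact permutation test cannot go below p = 0.333 and was not used. P-values measure the spread between libraries, which may be technical. The study's methods state no test over genes for RNAseq.

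Named genes were up to 12 in each direction by fold change among those with an adjusted p under 0.05, at least 5 CPM and no overlap, in the pooled comparison and in both libraries, up to 8 in each direction for replicate 2 only, members of the lists, and Rn45s. Members and lists were chosen with earlier results of these data known. Positions came from GENCODE M21. Data were simulated with the same expected levels in both HD striatum libraries and a spread per gene shared by all groups. The real HD striatum replicates differed far more than other pairs, so the simulated rates of false calls do not hold for them. With 200 of 14475 genes changed by a log2 of 1.5, edgeR recovered 112 in the pooled comparison with 6.67% of its calls false. DESeq2 1.42.0 recovered 131 with 18.1% false. For single libraries edgeR recovered 70 and 74, with 4.11% and 5.13% false.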

Additional observations from a re-analysis of the deposited data

How the results depend on the processing

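In the pooled comparison (276 genes called), upper-quartile and RLE scaling, at least 1 CPM in every library, Rn45s left out and the GC trend removed gave 238 to 300 genes. The count was 913 with DESeq2 (642 higher and 271 lower), 426 with no filter, 169 with the gene span trend removed, 17 at an adjusted p under 0.01, all of them higher, and 0 with the 6 striatal libraries or the 4 libraries only, where 1656 and 1233 had an unadjusted p under 0.05. Leaving out single libraries gave 0 (without the 8-week WT library) to 2778 (without replicate 1), with 79 without the 13-week WT library and 378 without replicate 2, which kept 167 of the 218 higher and 27 of the 58 lower genes. The GC and span trends were alternatives chosen after the data were seen. Of 15 or 16 alternatives, each of the 37 named genes called in the pooled comparison lost its call under 3 to 7, always including the 6 striatal libraries, the 4 libraries only and the 8-week WT library left out, and none of them changed direction. Of the 16 named genes of replicate 2 alone, 15 kept their call under all of their 11 or 12 alternatives and Ocel1 lost it at 0.01.

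For replicate 1 (372 genes) the count was 894 with no filter, 12 with the 6 striatal libraries, 71 at 0.01, and 59 to 448 with a WT library left out. For replicate 2 (2788) it was 1676, 1453 at 0.01, and 1851 to 2241. Replicate 2 against replicate 1 (1660) gave 720 with the striatal libraries and 753 at 0.01. Genes changed in both (213) numbered 451 with no filter, 11 with the striatal libraries, 43 at 0.01 and 46 to 276 with a WT library left out. Genes changed in replicate 2 only (1315) numbered 651 with the striatal libraries and 634 at 0.01. The difference between regions (0 genes) gave 16 with DESeq2 and 0 to 1362 with a library left out. Members of the fixed lists called (8) numbered 49 with DESeq2, 5 with the span trend removed, 1 at 0.01, 0 with the striatal or the 4 libraries only, and 0 to 147 with a library left out. The causes were not tested.

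Only HD groups hold a library with a number in its label. Deviations of libraries with the same replicate number correlated between 0.0189 and 0.257 over the pairs of HD groups. Some of these pairs join 8-week with 13-week mice, which cannot share a mouse. The correlations therefore cannot decide whether striatum and cortex libraries came from the same mice, and the main fit did not pair them. By Xist and Ddx3y, replicate 1 of each HD group showed the male and replicate 2 the female pattern. With a replicate block the pooled comparison gave 353 genes, the difference between regions 0 and the lists 12.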
